A study of Mus musculus with 10 samples.

Results

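A set of 43 cell cycle and DNA replication genes was followed in mouse basophils, mast cells and eosinophils grown from bone marrow, with and without the gene for secretory leukoprotease inhibitor (Slpi). The set holds 23 genes of S phase and 20 genes of mitosis, out of 19937 genes that the arrays measured under a single name. The genes were chosen by the difference in signal between unstimulated Slpi-/- and B6 basophils, in which they were lower, so that difference is given below as a description and was not tested. Of the 43 genes, 42 had a probe set with their name alone, and Ccnb1 had none. All 23 S phase genes and 19 mitosis genes were therefore measured. A signal counted as above background when it exceeded the 95th percentile of 1027 olfactory receptor genes on the same array, a level of 5.56 to 5.78 on the log2 scale. By this measure 20 of the 42 genes were above background on all 10 arrays, 19 on some arrays only, and 3 (Gins1, Prim1 and Cdc25c) on no array.

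A cell that divides first copies its DNA in S phase and then parts the copies in mitosis. E2F transcription factors switch on the S phase genes, which license the origins, build the replicative helicase and supply nucleotides, whereas the mitosis genes are switched on later, as cells pass through G2. RNA levels of the mitosis genes are widely read as a measure of how many cells of a population are cycling. In bulk RNA, fewer cycling cells and less RNA per cycling cell cannot be told apart.

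The arrays were Affymetrix Mouse Gene arrays, and each of 10 conditions was measured on 1 array. All cells came from bone marrow of mice of the C57BL6/N strain, either wild type (B6) or Slpi-/-, in which Slpi is deleted in the whole animal. Bone marrow-derived basophils (BMBs) were grown with interleukin-3 and isolated with magnetic beads as c-kit- DX5+ cells, and were left unstimulated or incubated for 1 h with anti-TNP-IgE and then for 12 h with its antigen, TNP-ovalbumin. Mast cells were grown in interleukin-3 and were unstimulated, and bone marrow-derived eosinophils (BMEos) were grown with stem cell factor and Flt3 ligand followed by interleukin-5 and were left unstimulated or given lipopolysaccharide (LPS) for 3 h. By the study's methods, mast cells were in culture for weeks longer than BMBs and BMEos. In comparisons with mast cells, cell type and time in culture cannot be told apart. How many mice or cultures contributed to an array was not given in the sources used here. With 1 array per condition, the pair of genotypes or the pair of stimuli serves as the replicate in the tests, and p-values measure only the spread between these arrays.

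The defining genes of each cell type were high where the labels placed them. Mcpt8 and Prss34, basophil proteases, lay between 12.57 and 13.29 in BMBs and at or below 6.58 elsewhere. Cma1 and Kit lay between 11.99 and 12.80 in mast cells, although the mast cell protease gene Mcpt4 was at 4.71 and 5.97 there, and Prg2, Epx and Ear6 lay between 10.67 and 13.10 in BMEos. Slpi itself read 11.42 and 11.33 in B6 BMBs against 6.55 and 6.35 in Slpi-/- BMBs, and 8.08 and 7.96 in B6 BMEos against 6.41 and 5.93 in Slpi-/- BMEos. In mast cells it read 6.53 and 6.47, so these arrays offered no check of the genotype. The 2 LPS arrays differed from the other 8 in sex-linked genes: Xist read 9.72 and 9.66 on them and at most 4.90 elsewhere, and Eif2s3y 3.22 and 3.54 against at least 7.62. LPS and the source of the mice cannot be told apart.

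The promoters of the genes differed in sequence along the line that divides the set. RefSeq promoters of 300 bases (assembly GRCm38.p6, 250 before and 50 after the start site) were found for 34 of the 43 genes, 20 of S phase and 14 of mitosis. Letters of the E2F site type (TTCGCGC, the variant TTGGCGC or the variant TTCCCGC, on either strand) were held by 11 of 20 S phase genes and by 3 of 14 mitosis genes, against 9.2% of all 27025 genes with a promoter. Letters of the cell cycle homology region (CHR, read as TTTGAA or the variant TTCGAA, on either strand), an element known from mitosis genes, were held by 4 of 20 S phase genes and by 11 of 14 mitosis genes, against 21.7% of all genes. The CCAAT box, on either strand, was held by 14 of 20 and 12 of 14, against 41.1% of all genes. All 11 mitosis genes with CHR letters also held a CCAAT box, and 8.61% of all genes held both. Mcm7 and Uhrf1 have a pair of listed promoters, and a motif in either counted. Of the other genes on replication and mitosis lists, E2F letters were held by 28 of 46 and 18 of 62 and CHR letters by 10 of 46 and 42 of 62. These matches describe letters in a window and do not show that a factor binds.

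The stretches below are the 200 bases before the start site of 4 S phase genes, 5′ to 3′ on the strand of the gene, in lower case with the E2F, CHR and CCAAT letters in capitals. Mcm5, Mcm6 and Pola1 are shown because they hold several E2F letters and rose with IgE, and E2f8 because it is the S phase gene that fell with IgE. Of the other genes that rose and have a listed promoter, Cdt1 and Uhrf1 hold E2F letters, and Mcm2, Tyms and Pcna hold none. Mcm3, Mcm7, Cdc6 and Rrm1 hold E2F letters and did not pass with IgE. A link between the letters and the IgE step was not tested.
Mcm5 (chr8:75109309-75109508, plus strand): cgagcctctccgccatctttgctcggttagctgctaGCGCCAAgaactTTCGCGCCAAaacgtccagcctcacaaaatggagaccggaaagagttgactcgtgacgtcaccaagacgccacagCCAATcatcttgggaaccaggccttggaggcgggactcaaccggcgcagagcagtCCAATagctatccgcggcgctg
Mcm6 (chr1:128359706-128359905, minus strand): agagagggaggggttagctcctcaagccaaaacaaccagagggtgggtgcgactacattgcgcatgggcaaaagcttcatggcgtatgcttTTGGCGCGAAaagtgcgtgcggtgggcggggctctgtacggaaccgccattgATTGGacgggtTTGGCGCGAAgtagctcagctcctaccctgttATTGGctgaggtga
Pola1 (chrX:93632156-93632355, minus strand): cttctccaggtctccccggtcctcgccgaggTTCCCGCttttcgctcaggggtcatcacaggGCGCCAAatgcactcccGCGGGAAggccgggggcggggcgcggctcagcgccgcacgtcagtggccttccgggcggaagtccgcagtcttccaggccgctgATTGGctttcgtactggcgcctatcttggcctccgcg
E2f8 (chr7:48881597-48881796, minus strand): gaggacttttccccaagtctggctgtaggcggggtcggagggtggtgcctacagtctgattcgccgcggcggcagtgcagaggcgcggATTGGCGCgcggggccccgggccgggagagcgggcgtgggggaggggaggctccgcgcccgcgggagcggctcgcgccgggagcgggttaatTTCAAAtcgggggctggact
In Mcm5 and Mcm6 pairs of E2F letters overlap and read as a single longer run of capitals, and in E2f8 an E2F match overlaps a CCAAT box. No CHR letters lie in the Mcm5, Mcm6 and Pola1 stretches.

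The next stretches, written the same way, are those of 3 mitosis genes. Kif11 and Mki67 are shown because they lay far apart between the arrays of unstimulated BMBs, and Top2a because it holds several CHR letters.
Mki67 (chr7:135716380-135716579, minus strand): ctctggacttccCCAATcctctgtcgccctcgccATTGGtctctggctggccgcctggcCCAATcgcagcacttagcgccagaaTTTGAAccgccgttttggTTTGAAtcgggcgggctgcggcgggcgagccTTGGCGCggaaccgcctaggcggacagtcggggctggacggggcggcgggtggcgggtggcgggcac
Kif11 (chr19:37376182-37376381, plus strand): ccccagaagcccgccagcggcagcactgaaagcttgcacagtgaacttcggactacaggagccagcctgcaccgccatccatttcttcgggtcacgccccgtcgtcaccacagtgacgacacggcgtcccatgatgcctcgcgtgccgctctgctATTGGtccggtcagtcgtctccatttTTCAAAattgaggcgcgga
Top2a (chr11:99024190-99024389, minus strand): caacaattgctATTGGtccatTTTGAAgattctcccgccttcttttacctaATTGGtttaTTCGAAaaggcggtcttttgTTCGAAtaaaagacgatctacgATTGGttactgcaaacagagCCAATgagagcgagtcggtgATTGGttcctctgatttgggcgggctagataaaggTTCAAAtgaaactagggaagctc
Mki67 holds 2 CHR matches, 3 CCAAT boxes and 1 E2F match in this stretch, Kif11 holds 1 CHR match and 1 CCAAT box, and Top2a holds 4 CHR matches and 5 CCAAT boxes.

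**Figure D1:**
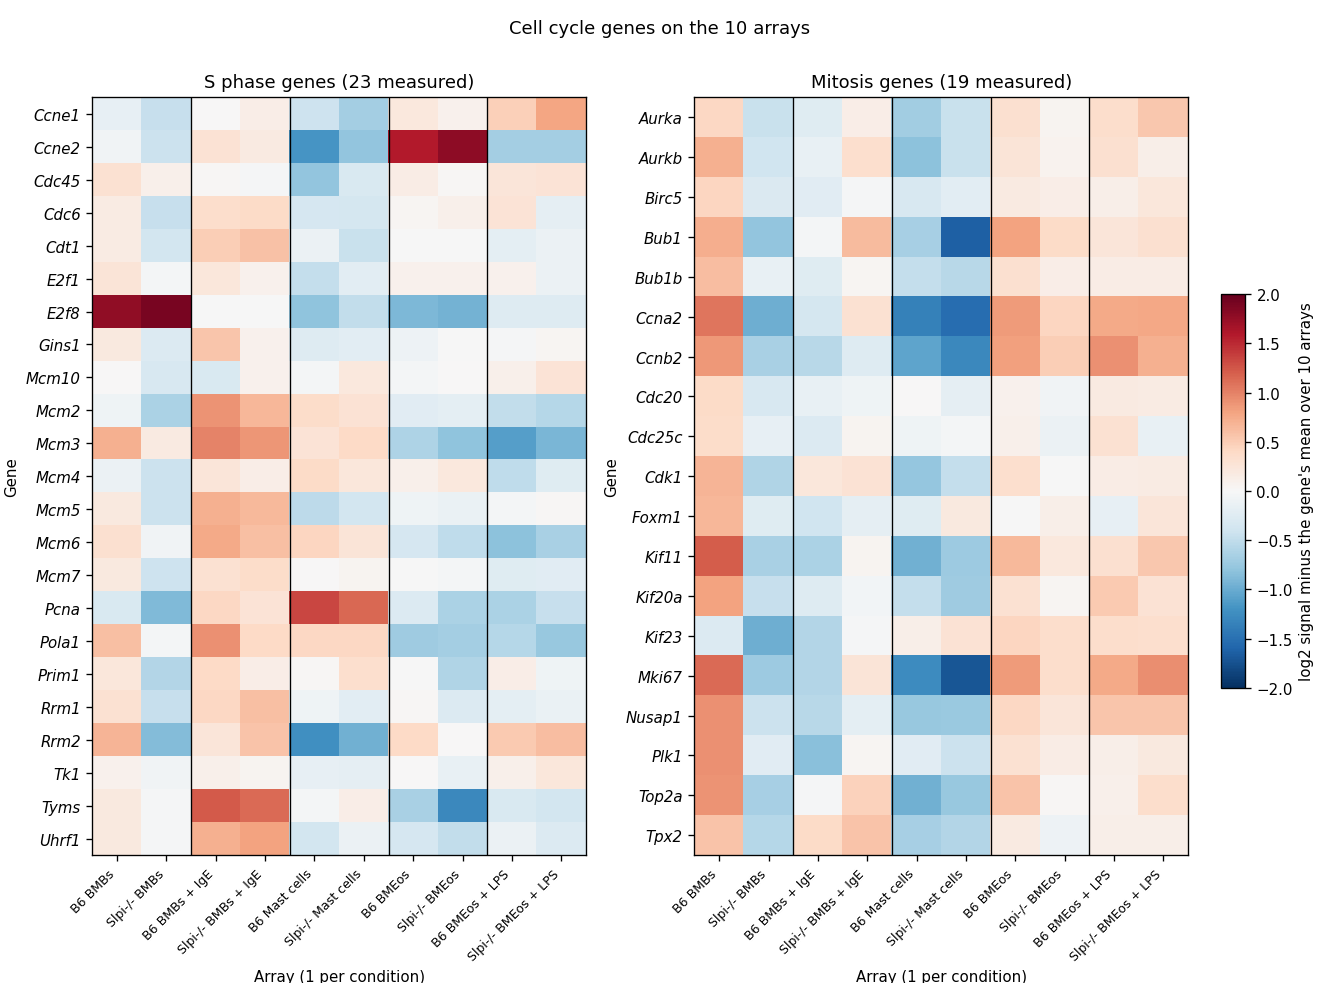
Log2 signal of each measured gene on each array, minus the gene's mean over the 10 arrays, for the 23 S phase genes (left) and the 19 mitosis genes (right); columns are arrays, 1 per condition, and vertical lines part the 5 settings of cell type and stimulus. Most mitosis genes share 1 pattern, high in unstimulated B6 BMBs and in BMEos and low in mast cells, with Kif23 an exception, whereas E2f8, Ccne2, Pcna and Tyms each follow a pattern of their own.

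In unstimulated BMBs, the pair that chose the genes, the mitosis genes lay further apart between the genotypes than the S phase genes did. Ccna2, the cyclin that drives S phase and entry into mitosis, read 7.95 in B6 BMBs and 5.90 in Slpi-/- BMBs, a difference of -2.04 on the log2 scale, or 4.12-fold. Mki67, the Ki-67 antigen gene, read 8.32 and 6.46, and Kif11, a spindle motor, read 7.23 and 5.37. All 18 mitosis genes above background in this pair were lower in Slpi-/- BMBs, with a median difference of -1.20, and 12 of them were at least 2-fold lower, where 0.514% of all 12262 genes above background in the pair were at least 2-fold lower and 56.6% were lower by any size. No member was at least 2-fold higher, against 0.269% of all genes. Of 19 S phase genes, 18 were lower, with a median of -0.40 (from -1.55 to 0.13), and 1 was at least 2-fold lower. It was Rrm2, the regulated subunit of ribonucleotide reductase, at 7.12 and 5.57, the latter under the background. E2f8, a repressor of E2F targets, was the exception at 9.34 in B6 and 9.47 in Slpi-/- BMBs, where 43.4% of all genes were higher in Slpi-/- BMBs. The smallest mitosis difference above background was that of Kif23, at -0.70. The other mitosis genes that were not members moved the same way, with 58 of 58 above background lower and a median of -0.66, and of 43 other replication genes 38 were lower, with a median of -0.19. Genes of G1 had a median of -0.27 over 20 genes, none of them 2-fold apart, and cell cycle inhibitors one of -0.10 over 27.

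Granule genes of promyelocytes moved with the mitosis genes in this pair. Mpo, myeloperoxidase, read 8.84 in unstimulated B6 BMBs, 6.0 in unstimulated Slpi-/- BMBs and between 5.56 and 6.43 on the other 8 arrays. Elane, neutrophil elastase, read 7.14 and 5.47, and Prtn3, proteinase 3, read 7.25 and 5.57, with neither above 5.85 on any other array. Of 13 neutrophil and promyelocyte markers, 11 were above background in unstimulated B6 BMBs and 7 in unstimulated Slpi-/- BMBs, and their mean signal was 7.44 and 6.40. Basophil markers had a median difference of -0.05 over 8 genes, and megakaryocyte markers one of 0.05 over 8. BMBs of both genotypes were isolated as c-kit- DX5+ cells, and the part of cells other than basophils in the difference of the mitosis genes was not tested.

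**Figure D2:**
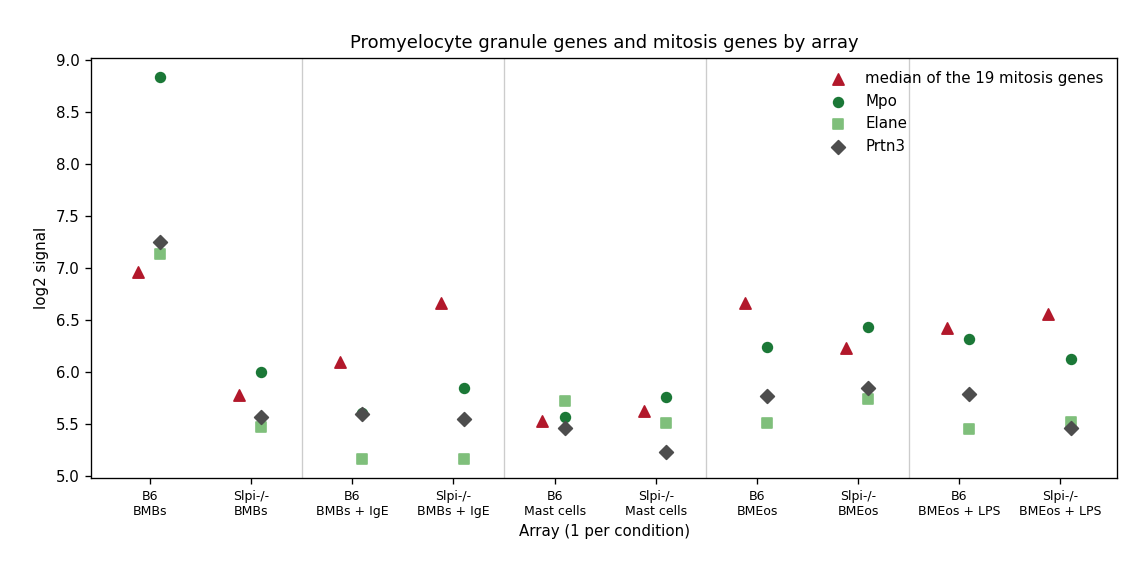
Log2 signal on each array of the promyelocyte granule genes Mpo, Elane and Prtn3 beside the median of the 19 mitosis genes; 1 point per array. The array of unstimulated B6 BMBs holds the highest value of all 4 series, and on the other 9 arrays the median of the mitosis genes lies between 5.53 and 6.67 and Mpo between 5.56 and 6.43.

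With IgE and antigen the order of the genotypes in BMBs was the opposite for the mitosis genes. Mki67 read 6.60 in B6 and 7.45 in Slpi-/- BMBs, Ccna2 6.53 and 7.19, and Plk1, a mitotic kinase, 5.86 and 6.72. All 14 mitosis genes above background in this pair were higher in Slpi-/- BMBs, with a median of 0.48 (from 0.06 to 0.87) and none 2-fold apart, where 47.2% of all 12165 genes were higher and 0.477% at least 2-fold higher. The S phase genes had a median of -0.05, with 9 higher and 12 lower, and of all genes 52.8% were lower and 0.214% at least 2-fold lower. Platelet and megakaryocyte genes differed on the same arrays: Ppbp read 8.81 and 11.45, Pf4 8.96 and 10.85, all 8 megakaryocyte markers were higher in Slpi-/- BMBs, and so were 10 of 11 monocyte, macrophage and dendritic markers. Their part in the mitosis genes' difference was not tested.

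In the other 3 pairs the genotypes lay closer together, and no member was 2-fold apart in any of them. In unstimulated BMEos 17 of 18 mitosis genes were lower in Slpi-/- cells, by a median of -0.27, and 13 of 19 S phase genes, by a median of -0.12. Among all 11644 genes in that pair 48.2% were lower and 51.7% higher, 0.0429% at least 2-fold lower and 0.0601% at least 2-fold higher. Mki67 read 8.04 in B6 and 7.55 in Slpi-/- BMEos, and the gap that was widest in the set was that of Tyms, at 6.53 and 5.89. With LPS 10 of 18 mitosis genes were higher and 8 lower, with a median of 0.02, and 13 of 18 S phase genes were higher and 5 lower, with a median of 0.08. Of all genes in that pair 50.5% were higher and 49.5% lower, 0.0803% at least 2-fold higher and 0.0722% at least 2-fold lower. In mast cells 6 of 10 mitosis genes were higher and 4 lower, with a median of 0.19, and the S phase genes were split 9 and 9, with a median of 0.01. Of all genes in mast cells 49.6% were higher and 50.4% lower, 0.0338% at least 2-fold higher and 0.0844% at least 2-fold lower.

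**Figure D3:**
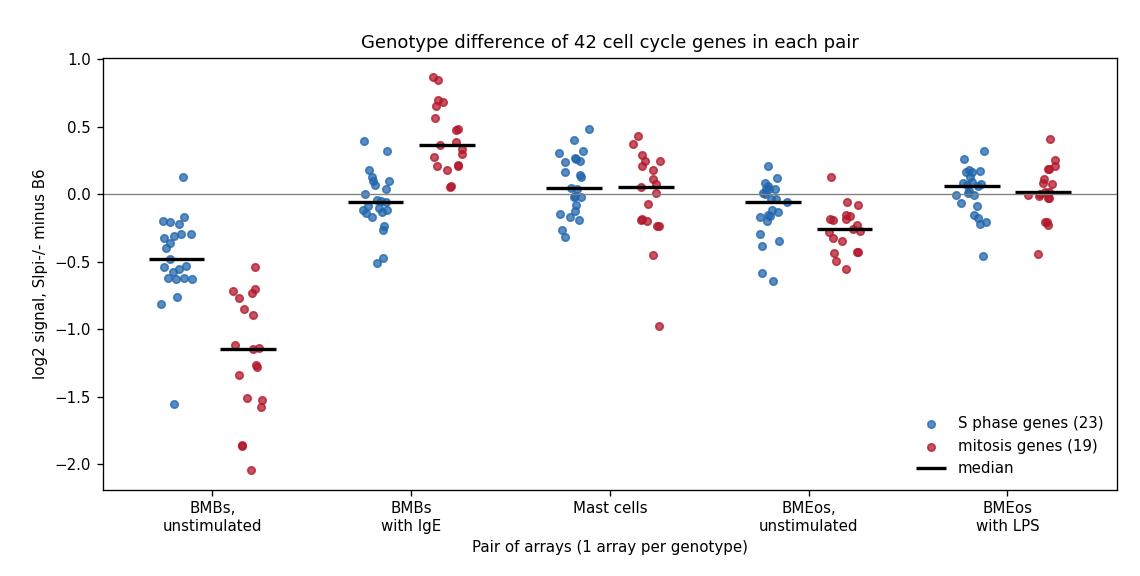
Difference in log2 signal, Slpi-/- minus B6, of each of the 42 measured genes in each of the 5 pairs of arrays, with S phase genes in blue, mitosis genes in red and a bar at the median of each (all measured genes, also those under the background). The mitosis genes sit below 0 in unstimulated BMBs, above 0 in BMBs with IgE and near 0 in mast cells and in BMEos with LPS.

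Genotype was tested in settings other than the pair that chose the genes. In BMEos, with a spread taken from all 10 arrays and so from that pair as well, and over the pairs with and without LPS, none of 39 members tested passed the limma test at an adjusted p of 0.05, and none had an unadjusted p under 0.05. Over all genes 0% passed as higher and 0.00737% as lower in Slpi-/- BMEos, which was Slpi alone of 13571 genes. Over the 4 pairs other than unstimulated BMBs, without those 2 arrays, again none of 39 passed, where 0% of 13472 genes passed in either direction and 697 had an unadjusted p under 0.05. Slpi itself was among the genes that did not pass, so the lack of calls does not show that the members were unchanged. The members with an unadjusted p under 0.05 were Foxm1, a transcription factor of the mitosis genes, at 0.30 ± 0.07 (SE; limma adjusted p 0.936), and Mcm10, a replication initiation factor, at 0.21 ± 0.07 (higher in 4 of 4 pairs; limma adjusted p 0.936). Foxm1 was under the background on both arrays of BMBs with IgE, so it has no order in that pair. It was also under the background on the B6 arrays of mast cells and of BMEos with LPS. The methods' t-test on the same pairs called none.

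IgE and antigen raised S phase genes in BMBs. Over the B6 and the Slpi-/- step together, 10 of 21 S phase genes tested rose and 1 fell (limma, adjusted p under 0.05), where 12.2% of all 13571 genes rose and 10.6% fell. None of 18 mitosis genes passed in either direction, and none had an unadjusted p under 0.05. The average of both steps does not rest on the genotype difference that chose the genes, but that difference enters the spread of the fit, which was wide for mitosis genes (SE 0.56 for Mki67) and narrow for most S phase genes (SE 0.11 for Mcm2).

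Mcm2, a subunit of the replicative helicase, had the largest rise of the set. It read 7.10 and 6.55 in unstimulated B6 and Slpi-/- BMBs and 8.09 and 7.85 with IgE. Its step of 1.14 ± 0.11 (SE, 2 of 2 pairs) had a limma adjusted p of 0.0018, and the arrays with IgE did not overlap those without. Mcm5 rose by 0.79 ± 0.15, Mcm6 by 0.55 ± 0.12 and Mcm4 by 0.46 ± 0.10, and Cdt1, which loads the helicase on origins, by 0.64 ± 0.15. Mcm3 (0.49 ± 0.14, limma adjusted p 0.0538) and Mcm7 (0.44 ± 0.16, limma adjusted p 0.104) did not pass, nor did the initiation genes Cdc6 (0.51 ± 0.19), Cdc45 (-0.20 ± 0.10) and Mcm10 (0.05 ± 0.17).

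Other S phase genes that rose act outside the helicase. Tyms, thymidylate synthase, read 7.37 and 7.16 without and 8.40 and 8.32 with IgE, a step of 1.09 ± 0.15 (limma adjusted p 0.00443). Pcna, the clamp that holds the polymerase on DNA, read 10.05 and 9.48 without and 10.76 and 10.63 with IgE, a step of 0.93 ± 0.16, and its other probe set read 9.73 and 9.12 without and 10.40 and 10.49 with IgE. In these genes too both arrays with IgE were above both arrays without. Pola1, the catalytic subunit of polymerase alpha, rose by 0.38 ± 0.10, Uhrf1, which carries DNA methylation through replication, by 0.67 ± 0.11, and the cyclin E gene Ccne2 from 5.45 and 5.09, under the background, to 5.81 and 5.71, above it (limma adjusted p 0.025), which sets its rise only at 1.09-fold or more. Such bounds, here and below, set each array of the dim side at its background. The ribonucleotide reductase genes Rrm1 (0.58 ± 0.22) and Rrm2 (0.50 ± 0.39) did not pass, and neither did Ccne1 (0.38 ± 0.15), Tk1 (0.07 ± 0.11) and E2f1 (0.05 ± 0.10).

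E2f8 went the other way. It read 9.34 and 9.47 in unstimulated BMBs and 7.57 and 7.57 with IgE, a fall of 3.58-fold (-1.84 ± 0.10, 2 of 2 pairs, limma adjusted p 0.00036). It was the only member whose step was past 2-fold downwards in both genotypes. Its promoter stretch is printed above beside those of Mcm5, Mcm6 and Pola1.

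The mitosis genes split by genotype under IgE. In B6 BMBs all 18 above background were lower with IgE, by a median of -0.90, and 8 of them at least 2-fold, where 1.73% of all 12435 genes were 2-fold lower and 52.9% lower by any size. In Slpi-/- BMBs all 14 above background were higher with IgE, by a median of 0.81, and 4 of them at least 2-fold, where 3.63% of all 12088 genes were 2-fold higher and 48.5% higher by any size. Kif11 went from 7.23 to 5.38 in B6 and from 5.37 to 6.08 in Slpi-/- BMBs, with 5.38 and 5.37 under the background. Among the genes counted past 2-fold, Kif20a, Nusap1 and Foxm1 were also under it with IgE in B6 BMBs. Bub1 and Tpx2 were under it in unstimulated Slpi-/- BMBs. With the dim side set at its background, all of these but Kif11 do not reach 2-fold. Both steps start at the arrays whose difference chose the genes, so these opposite signs are a description. The S phase genes had a median step of 0.28 in B6 and 0.70 in Slpi-/- BMBs, with 16 of 21 and 19 of 21 above 0, where 47.1% and 48.5% of all genes were above 0. At least 2-fold higher were 1 S phase gene in B6, Tyms, and 6 in Slpi-/- BMBs, where 1.91% and 3.63% of all genes were. In the other direction E2f8 alone was past 2-fold in Slpi-/- BMBs, where 2.23% of all genes were and 51.5% were lower by any size.

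Without the array of unstimulated B6 BMBs, an alternative chosen after the granule genes had been seen, 10 S phase genes rose, of which 7 were among the 10 above, 1 fell (E2f8) and 6 mitosis genes were called higher (Aurkb, Bub1, Ccna2, Cdk1, Kif23 and Tpx2). Without the array of unstimulated Slpi-/- BMBs, Mcm2 alone was called higher, and E2f8 and 11 mitosis genes lower. In each of these fits the unstimulated side is 1 array, assumed to vary like the other groups, and it is an array whose values chose the genes, low in Slpi-/- and high in B6 BMBs, so the direction of the mitosis calls follows from that choice and they are a description. Mcm2 (limma adjusted p 0.00718 and 0.0216) and E2f8 (limma adjusted p 0.00371 and 0.00727) passed in either case, and the number of genes called depended on which array was kept. In the average of both IgE steps 13 of 13 neutrophil and promyelocyte markers were lower (median -0.84), of which 1, Ly6g, passed. In the B6 step 11 of 12 above background were lower (median -1.67), where 52.9% of all genes were. In the Slpi-/- step 4 were lower and 3 higher (median -0.15), where 51.5% of all genes were lower. The part of these markers in the steps of the members was not tested.

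**Figure D4:**
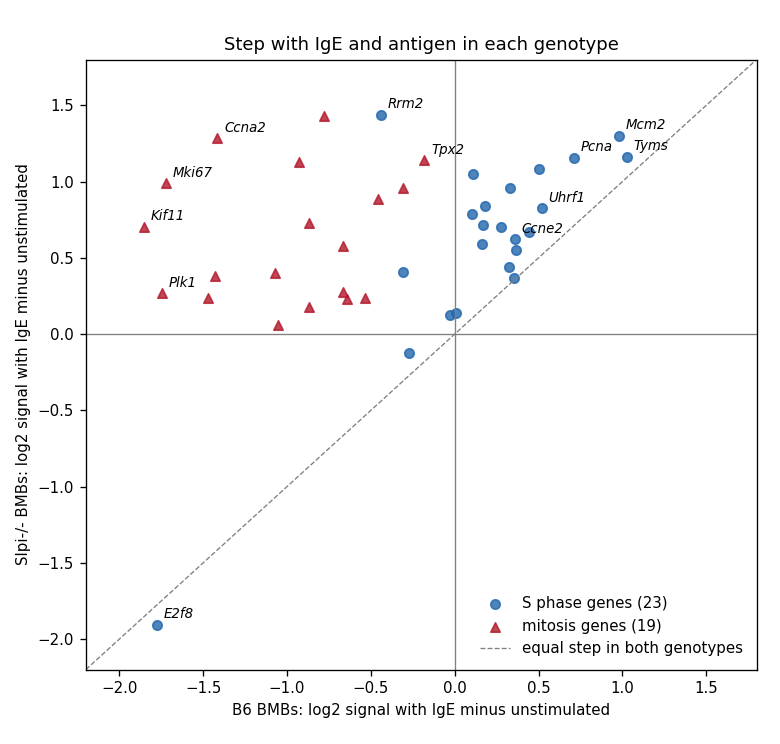
Difference in log2 signal, with IgE and antigen minus unstimulated, in B6 BMBs (x axis) and Slpi-/- BMBs (y axis) for the 23 S phase genes (circles) and 19 mitosis genes (triangles), each point a gene and each axis 1 pair of arrays; the dashed line marks equal steps. Most S phase genes lie above 0 on both axes, E2f8 lies far below 0 on both, and every mitosis gene lies left of 0 and above 0, including those under the background.

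Of 48 other replication genes tested with IgE, 13 rose and 2 fell, against 12.2% and 10.6% of all genes, among them Cdca7 (1.65 ± 0.23), the origin recognition gene Orc2 (1.21 ± 0.14) and the polymerase delta subunit gene Pold2 (1.03 ± 0.12) upwards and the deoxycytidine kinase gene Dck (-1.33 ± 0.12) downwards. Of 60 other mitosis genes 2 rose and 4 fell, both smaller shares than over all genes. Of 20 G1 cyclins, kinases and activators 6 rose and 2 fell. Myc, which drives growth and cell cycle entry, read 8.29 and 8.0 without and 9.64 and 9.63 with IgE (1.49 ± 0.11), Cdk6 rose by 1.02 ± 0.17 and E2f2 fell by 1.10 on the log2 scale. Of 27 inhibitors 9 fell and 1 rose. Btg2 fell from 9.19 and 9.16 to 7.91 and 8.05, Gadd45a (-1.04 ± 0.10) and the pocket protein gene Rbl2 (-0.82 ± 0.12) fell too, and Gadd45g rose (0.75 ± 0.10). Each of these genes passed the limma test.

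Many mitosis genes read lower in mast cells than in BMEos. In unstimulated BMEos against unstimulated mast cells 10 of 18 mitosis genes were higher and none lower, where 24.3% of all 12998 genes were higher and 26.8% lower (limma, both genotypes). Mki67 read 8.04 and 7.55 in BMEos and 5.93 and 5.48 in mast cells, a difference of 2.09 ± 0.32 (limma adjusted p 0.00157), with the Slpi-/- mast cell array under its background. Ccnb2 (1.83 ± 0.29) and Top2a (1.16 ± 0.36) passed as well, each also under the background on 1 of 2 mast cell arrays, and Aurka (0.76 ± 0.23) passed with all 4 arrays above it. Ccna2, the checkpoint kinase gene Bub1, Kif11 and Nusap1 passed but were under the background on both mast cell arrays, so that they were at least 3.45-fold, 1.14-fold, 1.64-fold and 1.14-fold higher in BMEos. Bub1b and Kif20a passed too, but with 1 of 2 BMEos arrays above the background and no mast cell array, their size is not given. Cdc20, which activates the anaphase-promoting complex, read 6.25 and 6.06 in mast cells and 6.32 and 6.16 in BMEos, and Birc5, survivin, read 5.51 and 5.62, under the background, in mast cells and 6.02 and 5.96 in BMEos, and neither passed. Cdk1 (0.79 ± 0.32), Aurkb (0.80 ± 0.30), Tpx2 (0.66 ± 0.26), Plk1 (0.55 ± 0.23) and Foxm1 (0.08 ± 0.28) did not pass either. Here and in the comparisons with BMBs below, the spread came from all 6 unstimulated arrays. The pair that chose the genes therefore enters it, also where BMBs are not compared. Among the other settings tried, Cdk1, Tpx2, Plk1 and Birc5 passed in 1 each, Aurkb in 3, and Foxm1 and Cdc20 in 0. Kif23, a motor of the central spindle, was the member that stood high in mast cells, at 7.53 and 7.71 against 7.85 and 7.77 in BMEos.

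The S phase genes were divided between BMEos and mast cells, 5 higher and 6 lower of 20 tested. These shares are near those of all genes, 24.3% higher and 26.8% lower. The cyclin E genes stood high in BMEos. Ccne2 read 7.11 and 7.31 in BMEos and 4.34 and 4.74, under the background, in mast cells, at least 2.79-fold higher (limma adjusted p 2.5e-05), and Ccne1 differed by 0.69 ± 0.10. Rrm2, under the background on both mast cell arrays, was at least 1.88-fold higher, and Cdc45 (0.64 ± 0.17, under it on 1 mast cell array) and E2f1 (0.43 ± 0.14) were higher as well. Pcna was the strongest of the genes higher in mast cells, at 11.69 and 11.50 there against 10.07 and 9.73 in BMEos (-1.69 ± 0.12, limma adjusted p 3.22e-05). Pola1, under the background in BMEos, was at least 1.7-fold lower there. The other genes lower in BMEos were Mcm3 (-1.06 ± 0.16), Tyms (-1.02 ± 0.18), Mcm6 (-0.76 ± 0.11) and Mcm2 (-0.54 ± 0.15).

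In unstimulated BMBs against mast cells 4 S phase genes were higher and 3 lower of 20, and 7 mitosis genes higher and 1 lower of 18, where 18.8% of all genes were higher and 17.9% lower. E2f8 read 9.34 and 9.47 in BMBs, 6.76 and 7.08 in mast cells, and 6.68 and 6.62 in BMEos. It was 5.6-fold higher in BMBs than in mast cells (2.48 ± 0.12, limma adjusted p 1.07e-05) and lower in BMEos than in BMBs by 2.76 ± 0.12 on the log2 scale (limma adjusted p 7.49e-06). Cdc45 (0.75 ± 0.17) and E2f1 (0.46 ± 0.14) were higher in BMBs, and Pcna (-1.83 ± 0.12), Mcm2 (-0.69 ± 0.15) and Mcm4 (-0.57 ± 0.12) lower. Ccne2 is counted among the 4, but it was under the background on all 4 arrays, so no difference is given. The mitosis calls rested on 1 array. Mki67 differed by 1.68 ± 0.32 and Kif23 by -0.83 ± 0.20, Ccna2 was at least 2.29-fold higher, and Bub1, Bub1b, Kif20a and Nusap1 were above the background on the B6 BMB array alone, but without the array of unstimulated B6 BMBs no mitosis gene was called higher and Kif23 remained lower. In that fit the unstimulated B6 level of BMBs was inferred from the B6 array with IgE and the IgE step of Slpi-/- BMBs. That step starts at the unstimulated Slpi-/- array, low in these genes by the choice of the set.

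Of 20 S phase genes 3 were higher and 6 lower in BMEos than in BMBs, and of 18 mitosis genes 1 was higher, Kif23 (1.02 ± 0.20), where 18.6% of all genes were higher and 21.2% lower. Ccne2, under the background on both BMB arrays, was at least 2.99-fold higher, Ccne1 (0.46 ± 0.10) and Mcm4 (0.43 ± 0.12) were higher, Pola1, under the background in BMEos, was at least 1.55-fold lower, and Mcm3 (-1.16 ± 0.16), Tyms (-1.06 ± 0.18), Mcm6 (-0.54 ± 0.11) and Uhrf1 (-0.50 ± 0.13) were lower beside E2f8. Without the array of unstimulated B6 BMBs the difference of Mki67 was 1.76, against 0.41 in the fit above. The unstimulated B6 level of BMBs was then inferred from the B6 array with IgE and the IgE step of Slpi-/- BMBs. That step starts at the Slpi-/- array in which the mitosis genes were low by the choice of the set, so this fit is a description.

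**Figure D5:**
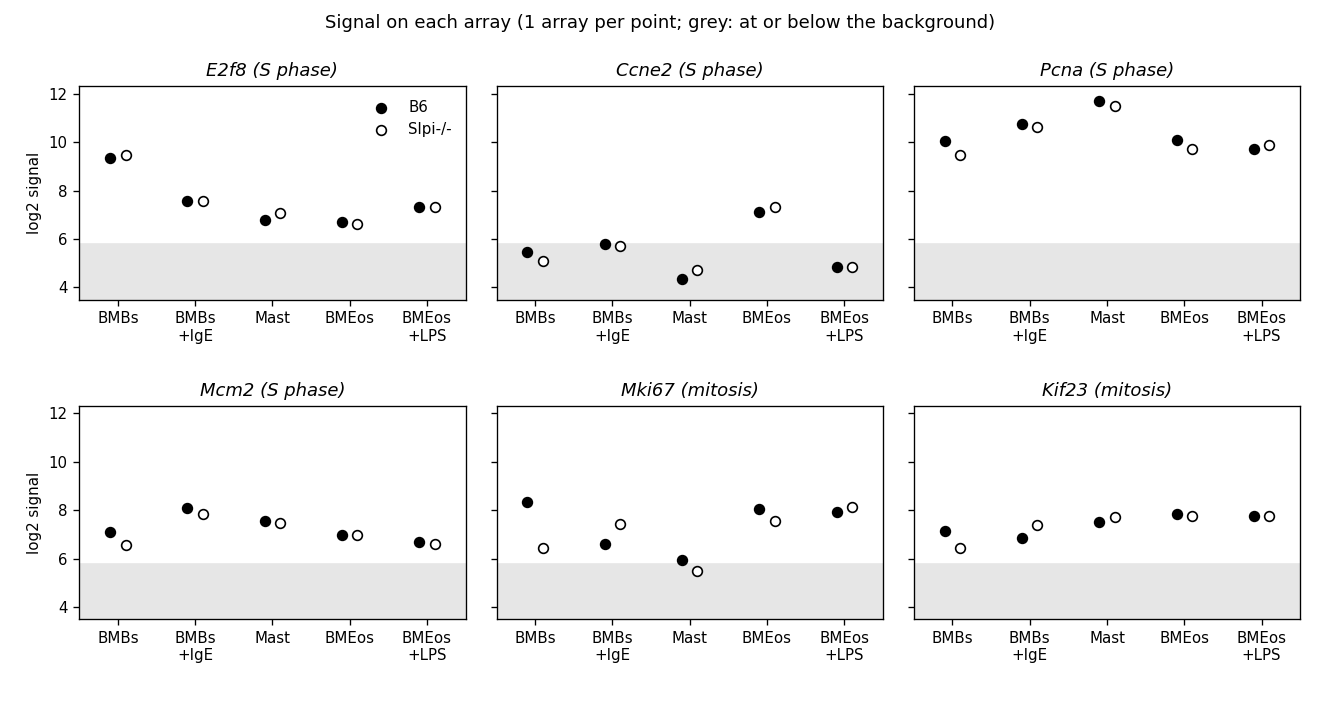
Log2 signal of E2f8, Ccne2, Pcna, Mcm2, Mki67 and Kif23 on each array, filled circles for B6 and open circles for Slpi-/-, with the 5 settings of cell type and stimulus along the x axis; the grey band reaches up to the highest background of any array, 5.78. E2f8 is highest in unstimulated BMBs, Ccne2 in unstimulated BMEos and Pcna in mast cells, while Mki67 is lowest in mast cells.

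Between BMEos and mast cells, 22 of 60 other mitosis genes were higher in BMEos and 3 lower, against 24.3% and 26.8% of all genes, led by Cenpa, the centromeric histone (2.18 ± 0.17). Of 43 other replication genes 10 were higher and 11 lower, shares near those of all genes, with Dck at 2.34 ± 0.13 and the chromatin assembly gene Chaf1b at -1.87 ± 0.14. Of 20 G1 genes 7 were higher and 7 lower. Ccnd2, a D-type cyclin, read 6.72 and 6.96 in BMEos against 10.61 and 10.66 in mast cells, and Myb 7.98 and 7.84 against 10.27 and 10.52. Of 27 inhibitors 13 were higher in BMEos and 7 lower, led by Gadd45a (3.45 ± 0.15) and Ccng2 (2.67 ± 0.11). In BMBs against mast cells 13 of 60 other mitosis genes were higher, near the share of all genes, and 3 lower. Of 43 other replication genes 3 were higher and 6 lower. Over all genes 18.8% were higher and 17.9% lower in BMBs.

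With LPS in BMEos 2 of 21 S phase genes rose and 2 fell, fewer than the 12.7% and 16.2% of all genes that rose and fell. Ccne2 fell from 7.11 and 7.31 to 4.85 and 4.84, under the background, a fall of at least 2.96-fold (2 of 2 pairs, limma adjusted p 6.41e-05). Mcm4 fell by 0.53 on the log2 scale (limma adjusted p 0.0113), and E2f8 (0.66 ± 0.10) and Tyms (0.64 ± 0.15) rose. Of 18 mitosis genes tested none passed, none had an unadjusted p under 0.05, and their median step was 0.03. This average covers unlike steps: 12 of 18 were lower with LPS in B6 BMEos (median -0.08) and 16 of 18 higher in Slpi-/- BMEos (median 0.21). Of all genes, 6060 of 12302 were lower in B6 and 6241 of 12309 higher in Slpi-/- BMEos. As with IgE, the spread of the fit holds the pair that chose the genes. E2f8 and Ccne2 had moved in opposite directions with IgE in BMBs, E2f8 downwards and Ccne2 upwards.

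Around the set, Ccnd2 rose with LPS from 6.72 and 6.96 to 8.71 and 9.65 (2.34 ± 0.17, limma adjusted p 0.000295). Inhibitors fell in 10 of 27 and rose in 4, among them Gadd45a from 10.41 and 10.43 to 8.40 and 8.49 and Cdkn1b, the p27 gene, from 10.55 and 10.60 to 8.89 and 8.96. Of 48 other replication genes 10 fell and none rose, led by Dck (-1.17 ± 0.12) and the helicase gene Blm (-1.07 ± 0.10). Of 60 other mitosis genes 7 fell and 3 rose, with Cenpa at -1.30 ± 0.15 and Pttg1, the securin gene, at 1.13 ± 0.13. Of 20 G1 genes 3 rose and 3 fell. Over all genes 12.7% rose and 16.2% fell with LPS, larger shares than those of the other mitosis genes and near those of the G1 genes. The LPS arrays are those that differ in Xist and Eif2s3y, and the source of the mice cannot be told apart from LPS in any of these steps.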

How the data were processed

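The authors deposited 1 normalized value per probe set and array, log2 RMA signal made with affy per the labels and the study's methods, from Affymetrix Mouse Gene arrays of 10 samples. The number of cultures per array was not given in the sources used here, and no spot-level depth is kept, so the number of arrays limits the precision.

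Of 34760 probe sets, 21640 carry 1 gene symbol in the platform annotation, and each of 19937 genes was read from its brightest probe set on average. Genes above the background (95th percentile of 1027 olfactory receptor genes) on at least 1 array of a fit were tested with limma 3.58.1 (lmFit, eBayes) in R 4.3.3, with Benjamini-Hochberg adjustment over all genes tested. Cell types were compared over 6 unstimulated arrays with genotype as a covariate. IgE, LPS and genotype in BMEos came from all 10 arrays, with cell type and genotype fitted jointly and a term for each stimulus, and genotype outside unstimulated BMBs from 8 arrays with a block for each of 4 settings. The methods' t-test was paired over the same pairs. Single pairs are values with no test, counted past 2-fold. The fits were tested on simulated data.

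The members, the other lists (replication, mitosis, G1, inhibitors, markers of other cell types) and the tests were chosen with earlier results of these data known. All members are named, and of each other list up to 4 genes with the largest difference among those passing. Alternatives were another centring, quantile normalization, probe set means, the filter on signal, a variance trend and other sets of arrays. Promoters came from a RefSeq table of assembly GRCm38.p6. Python 3.11.15 and pandas 2.3.3 were used.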

Additional observations from a re-analysis of the deposited data

Results flagged for a closer look

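The median difference of the mitosis genes, Slpi-/- minus B6, was -1.20 in unstimulated BMBs and 0.48 in BMBs with IgE on the log2 scale, because every mitosis gene above background moved one way in the first pair and the opposite way in the second. The difference between the pairs was not tested, since each genotype was measured on 1 array in each and the first pair chose the genes.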

How the results depend on the processing

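Over the members, counts stayed within 1.5-fold or medians within 0.1 on the log2 scale in 220 of the settings tried. Past these limits 7 counts were weaker and 6 stronger, and 3 medians moved without changing sign. Among single genes and sub-lists 2483 stayed, 75 were weaker, 56 were stronger and 5 turned. With all 10 arrays 6 members were higher in BMBs than in mast cells, against 11 with the unstimulated arrays. Without the array of unstimulated B6 BMBs, a setting chosen after seeing the data, 3 members were higher in BMBs than in mast cells, 20 were higher in BMEos than in BMBs (4 in the report) and 16 rose with IgE (10 in the report), and Plk1 (0.90), Bub1b (0.51) and Kif20a (0.73) turned in BMEos minus BMBs and Ccna2 (1.28) and Aurkb (0.73) in the IgE step. Without the array of unstimulated Slpi-/- BMBs, also chosen after seeing the data, 1 rose and 12 fell with IgE. The methods' t-test, on pairs alone, called 0 members higher and 0 lower with IgE and 0 and 0 with LPS, with 1 degree of freedom. With a 1.5-fold minimum 23 members were lower in unstimulated Slpi-/- BMBs (13 at 2-fold), 5 higher in Slpi-/- BMBs with IgE and 1 lower in unstimulated Slpi-/- BMEos. With the background at the 99th percentile the median of the S phase genes in unstimulated BMBs was -0.53, and with no filter on signal the medians of the mitosis genes were 0.37 in BMBs with IgE and 0.053 in mast cells. The cause of these shifts was not tested. Genes under the background on an array have no order there, and 1 array per condition leaves each array's own error unknown.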
